A study of Homo sapiens with 4 samples.

Results

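Treatment with 5-azacytidine was compared with vehicle in the non-MG subpopulation of HCT116 cells, a human colorectal carcinoma cell line. The comparison rests on 2 of the 4 arrays of the series, chosen by their labels, and covers all 21611 genes that could be named. Non-MG cells are the cells that stayed on the upper membrane of a transwell chamber through 5 rounds of selection, while MG cells crossed it, and both were grown as separate populations. The non-MG cells received either 5 µM 5-azacytidine or vehicle, labelled control, for 48 h, and the MG cells were treated alike. Each condition has 1 one-colour array, so there is no replicate spread and no test, and p-values are not given.

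5-azacytidine is a cytidine analogue that cells phosphorylate and build into RNA and, after reduction, into DNA. In DNA it traps DNA methyltransferases, so that cytosine methylation is lost as the cells divide. Germline genes, imprinted genes and genes with methylated CpG-rich promoters are the classes best known to respond in cancer cells, and NF-kB and interferon response genes have also been described.

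Intensities are given as background-corrected scanner values in arbitrary units, and log2 ratios are 5-azacytidine over vehicle after each array was set to its own 75th percentile. That percentile was 87.0 with vehicle and 75.2 with 5-azacytidine, so a gene with equal intensities on both arrays has a ratio slightly above 0. A gene was called expressed when a probe was well above background on both arrays, and switched on when no probe was well above background with vehicle but at least 1 was with 5-azacytidine. The lowest intensity well above background was 10.04 with vehicle and 9.95 with 5-azacytidine, and for switched-on genes the fold is a lower bound against that limit or the probe's own vehicle signal where this was higher. Raised and lowered mean past 1.5-fold between these arrays. The spot error printed after ± is expected from the SD between the 10 spots of repeatedly spotted probes of the same intensity and covers spotting and scanning only.

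More genes of non-MG cells rose from below detection than fell below it, while raised and lowered genes among those already expressed were similar in number. Of the 8124 named genes not well above background with vehicle, 216 (2.66%) were switched on past a bound of 1.5-fold. Of the 13487 genes detected with vehicle, 56 (0.415%) were switched off past the same bound. By the detection flag alone, without a bound, 405 genes were switched on and 335 switched off. The bounds favoured switch-on, because after scaling the detection limit lay lower with vehicle than with 5-azacytidine. THY1 reached a switch-on bound of 1.54-fold at 13.4 with 5-azacytidine, while ABCB1 needed 18.05 with vehicle for a switch-off bound of 1.57-fold. The counts past bounds of 2-fold and 4-fold share this tilt. Quantile normalization gave 197 switched on and 86 switched off. Among the 13145 genes expressed on both arrays, 264 (2.01%) were raised and 207 (1.57%) were lowered, and 96.4% stayed within 1.5-fold. With arrays centred on their medians instead, 183 were raised and 413 lowered, and with normexp background correction, which compresses low signals, 54 were raised, 64 lowered, 41 switched on and 0 switched off. The counts in the 2 directions drew apart with size. Past 2-fold, 103 genes were switched on and 14 switched off, and 78 were raised and 12 lowered. Past 4-fold, 27 were switched on and none off, and 18 were raised and 2 lowered. The raised genes had a median log2 intensity of 4.55 with vehicle, against 7.56 for all expressed genes. Of the 264 raised genes, 32 were within 2 spot errors of no change, as were 24 of the 207 lowered genes. Genes with a log2 intensity of at least 5 on both arrays are called bright here, and 93 of them were raised and 96 lowered. Their highest spot errors were 0.18 and 0.20, so every one past 1.5-fold was bound to be past 2 spot errors. A switch from below background does not mean that the gene was silent, since 180 of the 216 had a positive and significant signal with vehicle by the scanner's weaker flag.

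**Figure D1:**
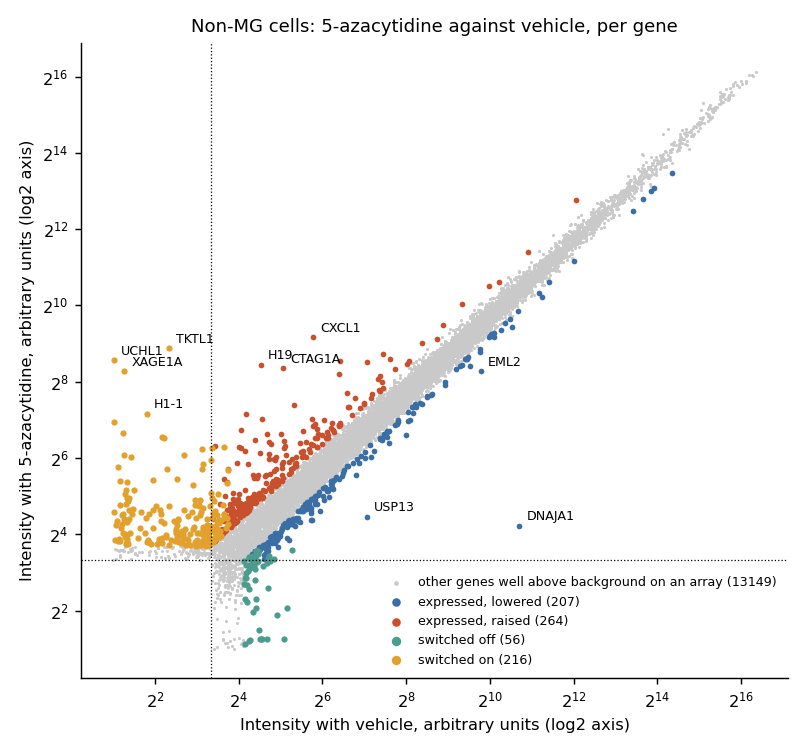
Intensity of each named gene with vehicle (x axis) and with 5-azacytidine (y axis) in non-MG cells, in arbitrary units on log2 axes, 1 array per condition; points are genes, coloured by call, and dotted lines mark the lowest intensity well above background on each array (10.04 and 9.95). The 216 switched-on genes lie to the left with TKTL1, UCHL1 and XAGE1A highest, the 264 raised genes are mostly dim, and DNAJA1 stands alone below the cloud.

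The labelled cell type was checked against markers. Of 12 colonic epithelial markers, 8 were expressed and none was raised or lowered. With 2.01% raised and 1.57% lowered over all expressed genes, a list of this size would hold few or no calls. EPCAM, an epithelial adhesion molecule, stood at 8434 with vehicle and 6221 with 5-azacytidine. VIL1, LGALS4, CEACAM5 and CDH17 were not well above background on either array. Of 10 fibroblast markers only COL1A1 was expressed, at 94.3 and 74.95, and THY1 came up from 2.56 to 13.4. Of 8 endothelial markers 2 were expressed, VWF and ESAM, and neither was raised. Of 11 leukocyte markers measured, 6 were expressed and 3 of these were raised (50%, beside 2.01% of all expressed genes). They were CSF1R, the receptor of macrophage colony-stimulating factor, CD14, a co-receptor for bacterial lipopolysaccharide, and CD3D, a chain of the T cell receptor complex. CSF1R went from 20.7 to 44.9, CD14 from 17.1 to 27.1 and CD3D from 20.98 to 31.8. All 3 were dim, with log2 ratios of 1.33 ± 0.07, 0.87 ± 0.27 and 0.81 ± 0.27. The summed intensity of the 6 was 926 with vehicle and 746 with 5-azacytidine, most of it CD79A, and PTPRC, found on nearly all leukocytes, CD3E, CD2, MS4A1 and ITGAM were not well above background on either array. The part of these markers in the other results was not tested.

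The promoters of 4 genes among those with the largest switch-on bounds, and of the bright gene with the largest rise are shown with those of 2 raised genes, ALPG and STRA6, picked because they held the fewest CG dinucleotides, the site of methylation, among the 22 named genes with an entry. Each sequence is the 250 bases before the start in RefSeq on GRCh38.p14, 5′ to 3′ on the gene's strand, with every CG in capitals. They are TKTL1 (chrX:154295545-154295794, plus strand), UCHL1 (chr4:41256678-41256927, plus), XAGE1A (chrX:52495627-52495876, plus), H1-1 (chr6:26017788-26018037, minus), CXCL1 (chr4:73869143-73869392, plus), ALPG (chr2:232406594-232406843, plus) and STRA6 (chr15:74212260-74212509, minus).
TKTL1: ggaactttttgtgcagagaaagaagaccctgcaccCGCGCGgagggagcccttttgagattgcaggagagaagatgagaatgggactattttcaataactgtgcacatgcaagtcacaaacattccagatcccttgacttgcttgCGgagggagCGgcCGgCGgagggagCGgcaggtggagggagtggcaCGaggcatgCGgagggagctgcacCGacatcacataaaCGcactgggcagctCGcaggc
UCHL1: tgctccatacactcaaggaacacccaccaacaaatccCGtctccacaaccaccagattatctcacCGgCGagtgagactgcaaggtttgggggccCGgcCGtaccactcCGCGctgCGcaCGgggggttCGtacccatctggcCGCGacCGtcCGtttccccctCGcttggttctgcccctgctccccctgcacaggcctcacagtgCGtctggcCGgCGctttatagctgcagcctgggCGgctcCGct
XAGE1A: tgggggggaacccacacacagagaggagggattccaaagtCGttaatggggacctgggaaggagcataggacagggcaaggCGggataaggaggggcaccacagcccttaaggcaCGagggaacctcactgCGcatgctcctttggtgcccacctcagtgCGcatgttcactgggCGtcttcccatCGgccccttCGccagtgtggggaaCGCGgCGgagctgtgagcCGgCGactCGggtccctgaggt
H1-1: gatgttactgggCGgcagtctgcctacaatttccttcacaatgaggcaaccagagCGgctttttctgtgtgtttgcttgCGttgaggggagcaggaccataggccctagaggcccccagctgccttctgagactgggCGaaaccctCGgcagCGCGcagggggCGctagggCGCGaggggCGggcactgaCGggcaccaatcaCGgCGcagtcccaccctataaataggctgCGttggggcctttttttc
CXCL1: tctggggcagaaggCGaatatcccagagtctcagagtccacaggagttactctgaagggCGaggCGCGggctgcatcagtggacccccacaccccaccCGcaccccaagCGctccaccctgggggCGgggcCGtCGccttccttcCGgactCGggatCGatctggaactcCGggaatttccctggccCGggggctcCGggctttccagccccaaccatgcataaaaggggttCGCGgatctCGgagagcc
ALPG: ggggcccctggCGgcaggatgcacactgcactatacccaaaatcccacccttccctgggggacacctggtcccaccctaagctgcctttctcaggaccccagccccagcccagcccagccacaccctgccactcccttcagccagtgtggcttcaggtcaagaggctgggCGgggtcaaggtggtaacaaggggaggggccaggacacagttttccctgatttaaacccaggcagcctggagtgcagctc
STRA6: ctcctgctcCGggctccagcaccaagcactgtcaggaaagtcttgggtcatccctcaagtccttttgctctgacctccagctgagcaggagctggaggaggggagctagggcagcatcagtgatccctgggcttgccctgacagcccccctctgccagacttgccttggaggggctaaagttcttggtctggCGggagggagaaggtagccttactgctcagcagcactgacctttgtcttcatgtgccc
In the 300-base window that adds 50 bases after the start, TKTL1 held 18 CG, UCHL1 25, XAGE1A 17, H1-1 17 and CXCL1 22, whereas ALPG held 6 and STRA6 3. Over the 27305 promoters in the table, 95.8% held at least 1 CG and the median was 14. Only 165 of the 216 switched-on genes (76.4%) and 71.6% of the genes detected on neither array had an entry, so a comparison of promoters between whole classes is void for lack of coverage and is not given. No methylation was measured on these arrays.

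Of the 15 genes with the largest switch-on bounds, 14 are described: TKTL1, UCHL1, XAGE1A, H1-1, MAGEA9, EZHIP, ZFP42, TCF15, CBS, PNMA5, ADAD2, NEFH, CTAG2 and DNAH2. Most are known from germ cells, embryonic cells or neurons. TKTL1, a transketolase-like protein made in the testis, went from 5.05 with vehicle to 470 with 5-azacytidine, at least 54.2-fold. UCHL1, a ubiquitin hydrolase of neurons, went from 2.01 to 378, at least 43.6-fold. XAGE1A, a cancer-testis antigen with a near-identical copy XAGE1B that the probe may not separate, went from 2.40 to 309, at least 35.6-fold. These 3 vehicle signals were all below the limit of 10.04, and the 5-azacytidine signals were far above it.

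The next genes came up to intensities between 61.4 and 143. H1-1, a linker histone found mainly in the testis and lymphoid cells, went from 3.49 to 143, at least 16.5-fold. MAGEA9, a cancer-testis antigen that may not be told apart from its copy MAGEA9B, went from 2.02 to 124, at least 14.3-fold. EZHIP, which inhibits the histone H3 lysine methyltransferase EZH2 and is normally made in gonads, went from 2.36 to 101, at least 11.6-fold. ZFP42, a zinc finger protein of pluripotent stem cells, had a bound of 10.8-fold, and TCF15, a transcription factor of the somites, one of 10.6-fold. CBS, which makes cystathionine in the transsulfuration pathway and has a near-identical copy, went from 8.72 to 75.8, at least 8.74-fold. NEFH, the heavy neurofilament chain, went from 2.39 to 67.0, at least 7.73-fold. PNMA5, CTAG2 and DNAH2 were nearer to the limit with vehicle, at 10.3, 12.5 and 10.2, and had bounds of 8.66-fold, 7.30-fold and 6.99-fold. ADAD2, a protein of male germ cells, had a bound of 7.74-fold. Each of these 14 values rests on 1 probe, and 5 of the 15 genes also lacked a positive and significant signal with vehicle by the weaker flag.

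**Figure D2:**
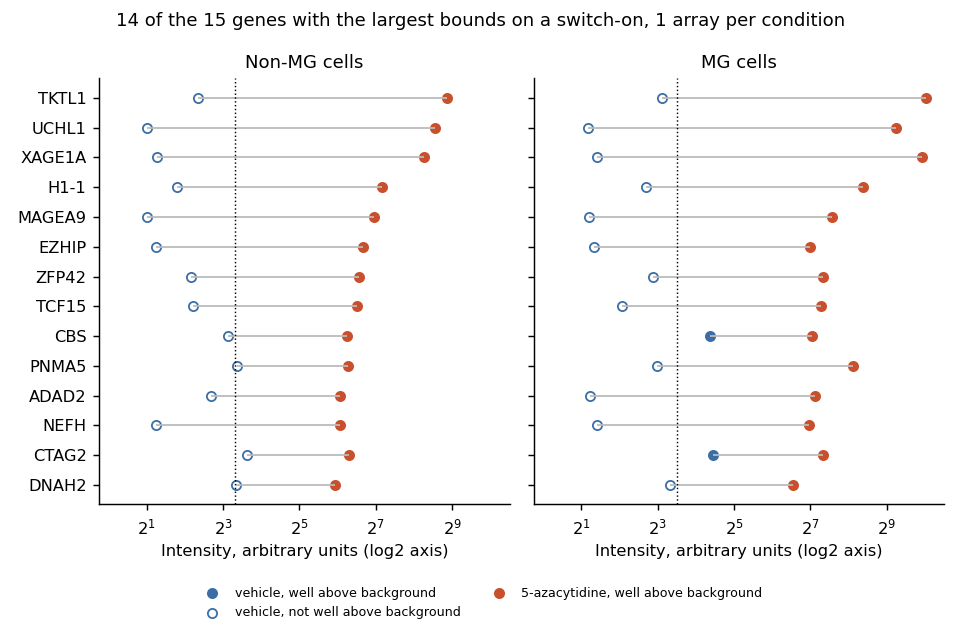
Intensity (arbitrary units, log2 axis) of 14 of the 15 genes with the largest switch-on bounds with vehicle (blue) and 5-azacytidine (red) in non-MG cells and in MG cells, 1 array per condition; open points were not well above background, and dotted lines mark the lowest intensity well above background with vehicle. All 14 vehicle points are open in non-MG cells, and in MG cells CBS and CTAG2 were already detected with vehicle.

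Chromosome X carried more of the strongly switched-on genes than of the genes at large. It held 21 of the 216 switched-on genes (9.72%), against 4.68% of the genes not well above background with vehicle and 3.29% of the expressed genes. Among the 27 genes with a bound over 4-fold it held 9 (33.3%), and 6 of 24 when the members of the cancer-testis list were left out. Without that list the share over all switched-on genes was 14 of 209 (6.70%). These shares are counts on 1 pair of arrays and were not tested.

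Cancer-testis antigens, proteins normally limited to germ cells and mostly encoded on the X chromosome, responded in both classes. Of 50 measured members, 37 were not well above background with vehicle, and 7 of these were switched on past 1.5-fold (18.9%, beside 2.66% of all such genes). They were XAGE1A, MAGEA9, CTAG2, SSX2, MAGEA1, MAGEA8 and PAGE1, and 28 members were detected on neither array. Of the 13 expressed members, 4 were raised and none lowered: CTAG1A, CT45A1, PAGE2 and MAGEA4. CTAG1A, which encodes the antigen NY-ESO-1 and may not be told apart from its copy CTAG1B, went from 33.3 to 328, a log2 ratio of 3.51 ± 0.13. CT45A1 went from 15.5 to 58.2, a log2 ratio of 2.12 ± 0.35, and PAGE2 from 54.1 to 131, a log2 ratio of 1.48 ± 0.09 over 2 probes. The median over the 13 expressed members was 0.15, beside -0.05 over all expressed genes. A large response of a few members thus stood beside many that were not detected. This list and those below were chosen with earlier results of these data known. Their shares beside those over all genes are therefore not independent of these arrays.

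Genes of meiosis and of the piRNA pathway, which silences transposons in germ cells, gave a more mixed picture. Of 36 members not well above background with vehicle, 6 were switched on (16.7%, beside 2.66% of all such genes): SYCP3, TDRD12, NLRP7, TEX11, STRA8 and TDRD1. SYCP3, an axial element protein of the synaptonemal complex, went from 8.35 to 27.3, at least 3.15-fold, and TDRD12, a piRNA pathway helicase, from 2.60 to 24.7, at least 2.85-fold. Of 15 expressed members, TUBA3D and TUBA3C, testis alpha-tubulins with near-identical sequences, were raised by 1.66 ± 0.09 and 1.23 ± 0.22 on the log2 scale. SYCE2, a central element protein of the synaptonemal complex, and TDRD6, a tudor domain protein, were lowered. SYCE2 went from 29.3 to 14.5, a log2 ratio of -0.81 ± 0.38. Thus 13.3% of the expressed members were raised and 13.3% lowered, beside 2.01% and 1.57% of all expressed genes. The median over the 15 was -0.03. Further genes of germ cells and early embryos lay outside the lists and the naming rule and are given because their values were seen to be large. The oocyte gene OOEP, the pluripotency gene DPPA2, the spermatogonial factor SOHLH1 and the let-7 inhibitor LIN28B had bounds of 4.82-fold, 6.05-fold, 4.94-fold and 5.06-fold.

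Among bright genes already expressed, the largest rises besides that of CTAG1A were in genes of different families. CXCL1, a neutrophil-attracting chemokine and NF-kB target, went from 54.9 to 573, a log2 ratio of 3.60 ± 0.11 over 2 probes. ALPG, the germ cell form of alkaline phosphatase, went from 85.5 to 374, a log2 ratio of 2.34 ± 0.10. SEMA6B, a transmembrane semaphorin, went from 40.0 to 169, a log2 ratio of 2.29 ± 0.14. GCNA, an acidic protein of germ cell nuclei, went from 83.9 to 295, a log2 ratio of 2.02 ± 0.10.

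The other bright genes that rose most belong to several families. CT45A7, a cancer-testis antigen of a family of near-identical copies, had a log2 ratio of 1.83 ± 0.15. LY6D and LY6K, small proteins anchored to the cell surface, had log2 ratios of 1.58 ± 0.15 and 1.49 ± 0.09. STRA6, the receptor that takes up retinol from its plasma carrier, went from 34.5 to 79.4, and the gut hormone gene CCK from 46.7 to 105. LGALS7, a galectin of stratified epithelia that has a close copy, went from 95.8 to 209, GMFG from 33.8 to 76.2, and the Notch ligand gene JAG1 from 56.8 to 120. The log2 ratios of these 5 lay between 1.29 and 1.41. The 15 genes were picked as the largest rises, so none of their intervals of ± 1 spot error could reach the 1.5-fold line.

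**Figure D3:**
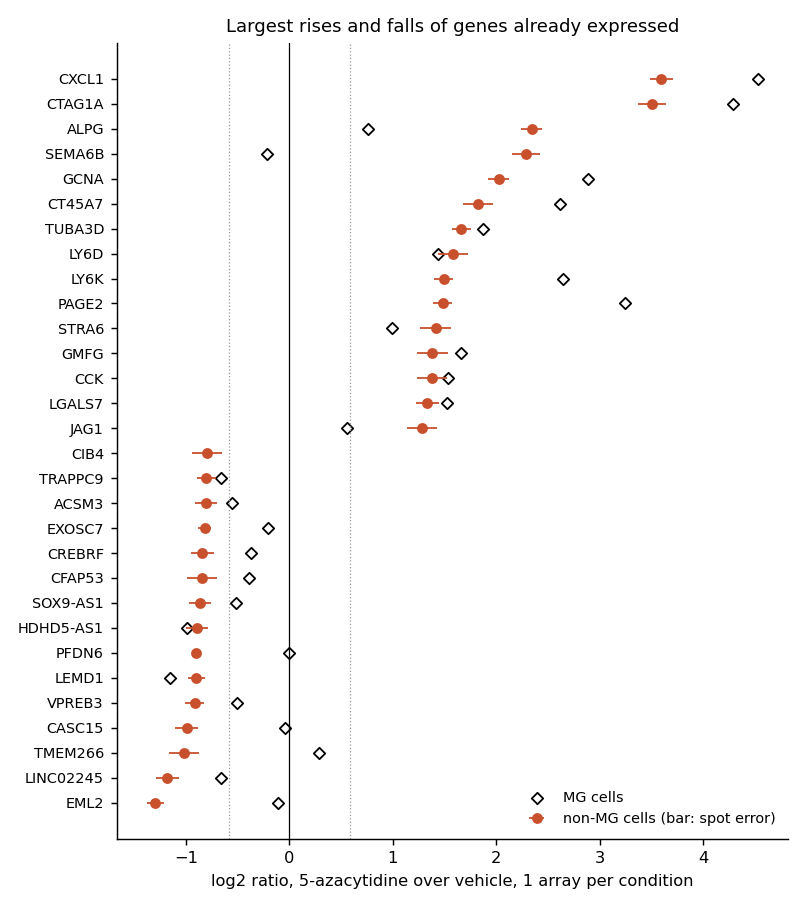
log2 ratio of 5-azacytidine over vehicle for the 15 largest rises and 15 largest falls among genes with a log2 intensity of at least 5 on both non-MG arrays; red points are non-MG cells with ± 1 spot error, open diamonds are MG cells where the gene was expressed on both MG arrays, and dotted lines mark 1.5-fold. The rises reach 3.60 in CXCL1 while the falls end at -1.29 in EML2, and SEMA6B and TMEM266 lie on opposite sides of 0 in the 2 cell types.

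Falls of bright genes were smaller. EML2, a microtubule-associated protein, had the largest fall among bright genes, from 884 to 311, a log2 ratio of -1.29 ± 0.08. LINC02245, a long non-coding RNA, went from 253 to 96.6, a log2 ratio of -1.18 ± 0.11, and TMEM266, a voltage-sensing membrane protein, from 111 to 47.2, a log2 ratio of -1.02 ± 0.15. The remaining 12 lay between -0.99 and -0.80. They were 3 further long non-coding RNAs (CASC15, HDHD5-AS1 and SOX9-AS1), VPREB3, LEMD1, CFAP53, CREBRF, ACSM3, TRAPPC9 and CIB4, the prefoldin subunit PFDN6 and the RNA exosome subunit EXOSC7. PFDN6 went from 1490 to 691 and EXOSC7 from 2437 to 1193.

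The 2 genes lowered past 4-fold were DNAJA1 and USP13, which fell outside the naming rule because they were dim with 5-azacytidine and are named after their values were seen. DNAJA1, an abundant HSP40 co-chaperone, went from 1663 to 18.7, a log2 ratio of -6.26. It stood at 2743 and 3521 on the MG arrays. USP13, a deubiquitinase, went from 134 to 22.1 and stood at 168 and 162 in MG cells. Each value rests on 1 probe that was low on the 5-azacytidine array of non-MG cells alone, and whether it reflects the RNA or the spot was not tested.

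Genes switched off were few and close to the limit. The 5 with the largest bounds were SNORD72, FRMD6-AS1, HOXA4, MBL1P and TYSND1. SNORD72, a small nucleolar RNA, went from 35.4 to 4.17, at least 3.08-fold, the highest bound in this direction. HOXA4, a homeobox transcription factor, went from 38.4 to 12.1, at least 2.74-fold. In MG cells HOXA4 was lower with 5-azacytidine too, by a log2 ratio of -0.88, while TYSND1 stood at 0.04. SNORD72, FRMD6-AS1 and MBL1P were not well above background on either MG array. Of the 56 switched-off genes, 19 were expressed on both MG arrays and 1 of these was lowered past 1.5-fold. By the flag alone 4 of the 56 were switched off in MG cells. ABCB1, the drug efflux pump P-glycoprotein, went from 18.05 to 9.21, at least 1.57-fold.

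The chemokine and NF-kB response list held the largest group of raised genes. Of 27 expressed members, 8 were raised (beside 2.01% of all expressed genes) and none was lowered, and of 19 not well above background with vehicle, 3 were switched on (beside 2.66% of all such genes). CXCL2 and CXCL3, chemokines closely related to CXCL1, had log2 ratios of 2.69 ± 0.15 and 0.83 ± 0.27. CXCL2 went from 23.4 to 130 and CXCL3 from 17.8 to 27.5. LCN2, a siderophore-binding protein of the acute phase, went from 20.8 to 88.4, a log2 ratio of 2.30 ± 0.21. BIRC3, an inhibitor of apoptosis that NF-kB induces, went from 334 to 520 and TNFAIP2 from 1938 to 2708, log2 ratios of 0.85 ± 0.08 and 0.69 ± 0.06. The complement gene C3 and the inhibitor-of-kB family gene NFKBIZ were the other 2. CCL20, which attracts CCR6-bearing cells, came up from 7.54 to 39.1, at least 4.51-fold, with IL32 and SAA2 at bounds of 2.47-fold and 2.25-fold. The median of the 27 expressed members was 0.03, with 14 members above 0 and 13 below, the lowest at -0.56.

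Interferon-stimulated genes, which 5-azacytidine is known to induce in some cells through endogenous retroviral RNA, had few calls. Of 41 expressed members none was raised, 2 were lowered (DDX60 and DDX60L), and 32 had ratios below 0. None of the 14 members not well above background with vehicle was switched on. At the shares over all genes, 2.01% raised, 1.57% lowered and 2.66% switched on, lists of this size would hold few or no calls. The list's median was -0.15, and IFIT1, an RNA-binding effector, went from 674 to 400, a log2 ratio of -0.54 ± 0.08. IRF7, which drives the interferon response, had the highest ratio, 0.41. All 20 expressed members of the MHC class I list stayed within 1.5-fold, between -0.21 and 0.25, and TAPBPL, related to the peptide-loading protein tapasin, was switched off, from 23.2 to 2.39, at least 2.01-fold.

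**Figure D4:**
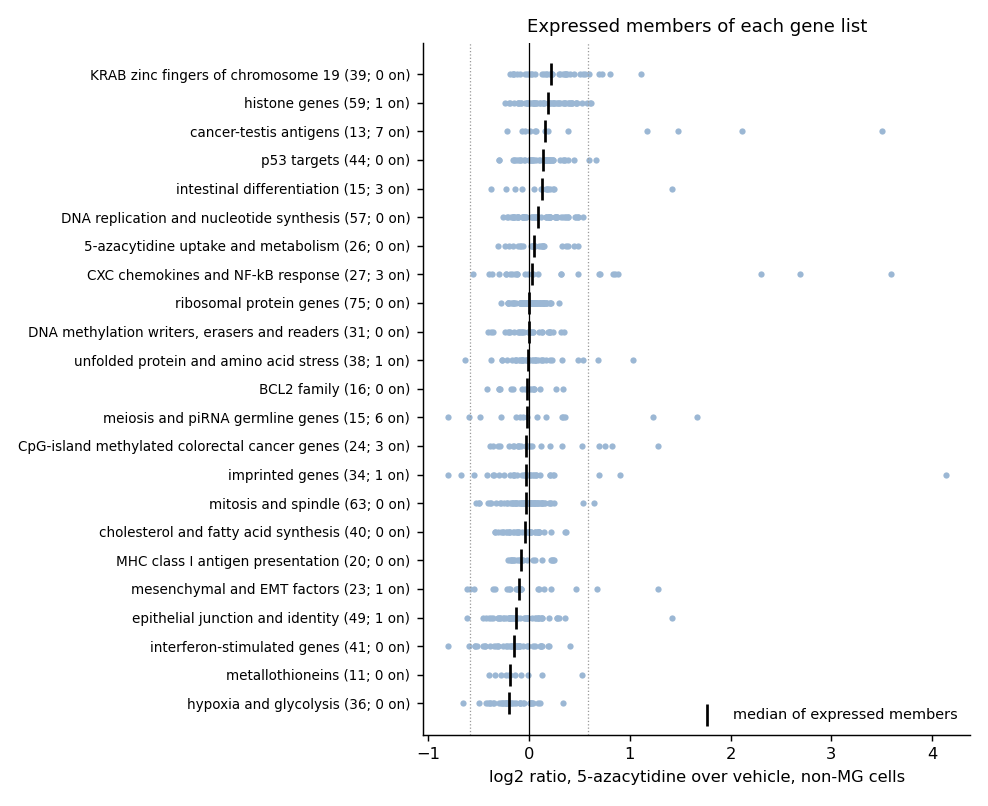
log2 ratio of 5-azacytidine over vehicle in non-MG cells for the expressed members of each pathway list, the cell type marker lists left out (blue points) with the list's median (black bar), and dotted lines at 1.5-fold; the first number after each name is the count of expressed members and the second the count switched on past 1.5-fold. All medians lie between -0.20 and 0.22, and single members such as H19, CXCL1 and CTAG1A lie far to the right of their lists.

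Imprinted genes, of which normally 1 parental copy is silent, included the largest rise of any expressed gene. H19, a maternally expressed non-coding RNA, went from 23.0 to 349, a log2 ratio of 4.13 ± 0.14 over 2 probes. IGF2, its paternally expressed neighbour, went from 1879 to 1461, a log2 ratio of -0.15 ± 0.06. MEG3, another maternally expressed non-coding RNA, had a log2 ratio of 0.90 ± 0.18 over 2 probes that disagreed, and of 0.05 by the brighter probe alone, which ends the call. NNAT, paternally expressed, had a log2 ratio of 0.69 ± 0.27. FAM50B, a paternally expressed retrogene, came up from 2.59 to 30.9, at least 3.56-fold. HYMAI and TRAPPC9 were lowered, and the other 29 of 34 expressed members stayed within 1.5-fold, as did 96.4% of all expressed genes.

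Genes known to carry methylated CpG islands in colorectal cancer mostly stayed undetected. Of 55 members not well above background with vehicle, 3 were switched on (5.45%, beside 2.66% of all such genes): UCHL1, IGFBP7 and EFEMP1. IGFBP7, a secreted binding protein of insulin-like growth factors, went from 13.4 to 51.3, at least 4.43-fold. Of 24 expressed members 4 were raised, beside 2.01% of all expressed genes, and none was lowered. VIM, the mesenchymal intermediate filament vimentin, went from 54.3 to 114, a log2 ratio of 1.28 ± 0.15, and IGFBP3, PAX6 and CRABP1 had ratios of 0.82, 0.69 and 0.75.

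KRAB zinc finger genes of chromosome 19, the family of ZNF350, had the highest median among the pathway lists, 0.22 over 39 expressed members, which became 0.12 with arrays centred on their medians. Of the 39, 5 were raised (ZNF134, ZNF274, ZNF417, ZNF551 and ZNF548), beside 2.01% of all expressed genes, none was lowered and 30 had ratios above 0. ZNF134 went from 14.1 to 26.5, a log2 ratio of 1.12 ± 0.38. The other 4 had log2 ratios between 0.60 and 0.80 at intensities of 40.8 or less, where the spot error was 0.22 to 0.38. None of 43 members below detection with vehicle was switched on past 1.5-fold, beside 2.66% of all such genes, though 3 became well above background. ZNF350 itself, a transcriptional repressor, stood at 31.5 with vehicle and 34.3 with 5-azacytidine, a log2 ratio of 0.34 ± 0.22, within 1.5-fold.

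RNA levels of the drug's targets changed little. DNMT1, the maintenance methyltransferase, had a log2 ratio of 0.13 ± 0.07, and the de novo enzymes DNMT3A and DNMT3B had ratios of 0.13 ± 0.10 and 0.24 ± 0.09. UHRF1, which brings DNMT1 to replicating DNA, had a ratio of 0.32 ± 0.06. None of 31 expressed genes of the DNA methylation machinery and none of 26 for uptake and metabolism of the drug was raised or lowered. Over all expressed genes 2.01% were raised and 1.57% lowered, so lists of this size would hold few or no calls. Of 44 expressed p53 targets, INPP5D and TIGAR were raised, while the median was 0.14 and the cell cycle inhibitor gene CDKN1A stood at 0.16. All 57 genes of DNA replication and nucleotide synthesis stayed within 1.5-fold, with PCNA, the sliding clamp, at 0.36 ± 0.04. Of 63 expressed genes of mitosis only SKA3, a kinetochore protein, was raised, by 0.64 ± 0.11 on the log2 scale.

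Histone genes had a median of 0.18 over 59 expressed members, 46 of them above 0. That median became 0.09 with arrays centred on their medians and 0.08 with normexp. Of the 59, H2BC15 and H2BC21 were raised (3.39%, beside 2.01% of all expressed genes), by 0.61 ± 0.15 and 0.61 ± 0.27 on the log2 scale. The same 59 genes had a median of -0.37 in MG cells. Of the stress genes, NUPR1 and ATF5 were raised, at 1.03 ± 0.38 and 0.68 ± 0.07, and DDIT4, an inhibitor of mTOR signalling, was lowered from 14829.7 to 8238, a log2 ratio of -0.64 ± 0.02. ADM, the hypoxia-induced peptide adrenomedullin, was the 1 lowered gene of 36 in the hypoxia and glycolysis list, from 12943.5 to 7098, in a list with a median of -0.20 and 28 members below 0. All 40 expressed genes of cholesterol and fatty acid synthesis, 75 of ribosomal proteins, 16 of the BCL2 family and 11 metallothioneins stayed within 1.5-fold. Over all expressed genes 96.4% did.

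Calls were few among epithelial and mesenchymal genes. Of 49 expressed epithelial genes 1 was raised (2.04%) and 1 lowered (2.04%), beside 2.01% and 1.57% of all expressed genes. KRT20, a keratin of mature enterocytes, was raised from 14.6 to 33.8, and the tight junction gene TJP3 was lowered from 263 to 148. CDH1, which encodes E-cadherin, stood at -0.20 ± 0.02. Of 23 expressed mesenchymal genes, VIM and ZEB1 were raised (8.70%) and MMP14 was lowered (4.35%), beside the same shares over all expressed genes. ZEB1, a repressor of E-cadherin, went from 27.5 to 37.8, a log2 ratio of 0.67 ± 0.22. In the intestinal differentiation list, 3 of 42 members not well above background with vehicle were switched on (7.14%, beside 2.66% of all such genes). TFF3 and TFF2, trefoil peptides secreted with mucus, had bounds of 3.81-fold and 3.13-fold, and the goblet cell factor SPDEF one of 2.61-fold.

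The MG arrays, which share no array with this comparison, were used to ask which of these responses recurred in another pair. In MG cells 3.21% of expressed genes were raised and 1.63% lowered. Of 8145 genes not well above background with vehicle in MG cells, 485 (5.95%) became so with 5-azacytidine, whatever the bound. By this same flag alone the count in non-MG cells was 405 of 8124. Of the 216 genes switched on in non-MG cells, 165 were not well above background in MG cells with vehicle either, and 98 of these (59.4%) became so with 5-azacytidine. The share rose with the size of the response, from 29 of 81 (35.8%) for bounds of 1.5-fold to 2-fold to 23 of 25 (92.0%) for bounds over 4-fold. The other 2 genes of that last class, CBS and CTAG2, were already expressed in MG cells and were raised there, by 2.71 and 2.91 on the log2 scale. IGFBP7 and FAM9A were the 2 not flagged as well above background on either MG array. IGFBP7 nonetheless rose there, from 2.90 to 12.6, past the lowest intensity well above background on that 5-azacytidine array, 11.8. The paper lists IGFBP7 among the genes that 5-azacytidine raised in MG cells. FAM9A, a testis gene of the X chromosome, stood at 2.60 and 2.63 on the MG arrays, beside 2.83 and 35.8 in non-MG cells.

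Raised genes recurred more often than lowered ones. Of the 223 raised genes expressed in MG cells, 102 were raised there (45.7%) and 195 had a ratio above 0. Of the 183 lowered genes expressed in MG cells, 27 were lowered there (14.8%) and 135 had a ratio below 0. Among bright genes, 46 of 93 raised genes and 17 of 95 lowered genes moved past 1.5-fold the same way in MG cells. The 15 largest falls show this gene by gene. LEMD1 and HDHD5-AS1 fell further in MG cells, with log2 ratios of -1.15 and -0.99, whereas EML2 stood at -0.11 and PFDN6 at 0.00 there, and CIB4 was not well above background on either MG array.

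Several of the strongest responses had other sizes in MG cells. VIM had a log2 ratio of 3.49 there against 1.28, CXCL2 one of 4.60 against 2.69 and LY6K one of 2.65 against 1.49. H19, LCN2 and ALPG were the other way, with log2 ratios of 2.73, 1.21 and 0.76 in MG cells against 4.13, 2.30 and 2.34 in non-MG cells. LCN2 and ALPG started from higher intensities in MG cells with vehicle, 238 and 432, than in non-MG cells, 20.8 and 85.5. None of these differences was tested. Both 5-azacytidine arrays lay in column 4 of the slide and both vehicle arrays in column 3, so treatment and position cannot be told apart in either cell type.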

How the data were processed

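Total RNA of HCT116 non-MG and MG cells was labelled with Cy3 (400 ng per array) and hybridized to Agilent SurePrint G3 arrays, 1 per condition on 1 slide. RNA extraction is given as RNAiso Plus in the labels but as RNeasy in the study's methods. The authors deposited, for each array, Feature Extraction 11.5.1.1 output (array design on hg19) holding linear background-corrected intensity values per spot, not normalized between arrays. They also deposited a table of log2 values centred per probe, whose scaling is not given in the sources used here and which served as an alternative. Control spots and outlier-flagged spots were left out (50594 of 50599 probes kept), log2 intensities were set to the 75th percentile of each array, and spots were averaged per probe. Through their RefSeq accessions 30000 probes were named, giving 21611 genes, and 19298 transcripts without a match enter only an alternative. No spot was saturated. With vehicle 21882 probes were well above background and with 5-azacytidine 21718, and the single array per condition limits the precision.

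Probes well above background were averaged per gene. The 1.5-fold threshold is a choice of this work. Named are the 15 largest switch-on bounds, the 15 largest rises and 15 largest falls at a log2 intensity of at least 5, the 5 largest switch-off bounds, up to 6 called members of each list and genes the study turns on. Others were named after their values were seen. Some genes that the rule names are not reported here. Members and lists were chosen with earlier results of these data known. The counting was tested on simulated data. Alternatives were normexp with offset 50, quantile normalization, median centring, no filter, the methods' filter on the lowest 20th percentile, 2-fold, the brightest probe, flagged spots kept, the weaker detection flag, signals raised to the detection limit and the authors' values. Added after the data were seen were unnamed transcripts and a floor on intensity. Python 3.11.15, numpy 2.4.6, pandas 2.3.3, matplotlib 3.10.9, R 4.3.3 and limma 3.58.1 were used.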

Additional observations from a re-analysis of the deposited data

Results flagged for a closer look

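Among the 62 named genes that passed 1.5-fold in non-MG cells and were well above background on every array, 6 had log2 ratios on opposite sides of 0 in the 2 cell types. The difference was not tested. Over all raised genes expressed in MG cells, 12.6% had a ratio below 0 there. Over all lowered genes expressed in MG cells, 26.2% had a ratio above 0 there. SEMA6B was raised by 2.29 in non-MG cells and stood at -0.22 in MG cells, where its intensity with vehicle was already 227, against 40.0 in non-MG cells. TMEM266 stood at -1.02 ± 0.15 in non-MG and 0.29 in MG cells, and DDX60, a dim gene, at -0.81 ± 0.38 and 0.37. H2BC15 and H2BC21 stood at 0.61 ± 0.15 and 0.61 ± 0.27 in non-MG cells and at -0.38 and -0.33 in MG cells. SKA3 stood at 0.64 ± 0.11 in non-MG cells and was nearly unchanged in MG cells, at -0.02.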

How the results depend on the processing

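No paired analysis was possible because each condition has 1 array. The counts raised, lowered, switched on and switched off were 264, 207, 216 and 56. Normexp with offset 50 gave 54, 64, 41 and 0, and a 2-fold threshold gave 78, 12, 103 and 14. Without a filter on dim genes 1863 were raised and 1239 lowered. Median centring, which shifts every log2 ratio by -0.098, gave 183 raised, 413 lowered, 177 switched on and 86 switched off, so the split of raised against lowered turned. Quantile normalization gave 86 switched off. Where silence needed the absence of any positive and significant signal, 36 were switched on and 6 off. With unnamed transcripts 314 were lowered, 371 switched on and 109 switched off, and 346 were raised. At a log2 intensity of at least 5 on both arrays, 93 were raised and 96 lowered. The brightest probe, flagged spots kept, the methods' filter, the detection limit and the authors' values moved no count by over 1.5 times. Of the 100 named genes past 1.5-fold, 55 stayed past it under normexp and 91 under median centring. Under quantile normalization, the brightest probe and the authors' values 97 or more did. All kept their direction under these alternatives, but several could not have turned it. Median centring shifts ratios by -0.098 only, and the authors' ratios matched within 0.01. For a gene with 1 probe the brightest probe is that probe. List medians within 0.1 of 0 have no settled sign: that of DNA replication genes was 0.09 and became -0.01 under median centring. Signal over background limits dim genes, where the spot error of raised genes reached 0.47 on the log2 scale, and the spread between cultures is unknown.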

Other observations

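Some genes that were dim but detected with vehicle rose past 4-fold in non-MG cells and lay outside the naming rule, so they were chosen after their values were seen. ICAM2, an adhesion molecule that binds leukocyte integrins, went from 17.9 to 142, a log2 ratio of 3.20 ± 0.20. RASD1, a Ras-like protein induced by glucocorticoids, went from 16.1 to 78.2, a log2 ratio of 2.49 ± 0.07. QPRT, an enzyme of NAD synthesis from tryptophan, had a log2 ratio of 2.40 ± 0.21 in non-MG and 2.32 in MG cells. GPER1, a G protein-coupled oestrogen receptor, had 2.18 ± 0.19 over 2 probes in non-MG and 1.58 in MG cells, and SERPINF1, a secreted serpin that inhibits vessel growth, 2.01 ± 0.35 and 1.73. The long non-coding RNA LINC00958 had 2.90 ± 0.21 and 3.31.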
